A study of Homo sapiens with 27 samples.

Results

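The comparison described here is that of 22Rv1 cells carrying the RIPK2 guide RNA numbered 10 with 22Rv1 cells carrying a control guide RNA. 22Rv1 is a human prostate carcinoma line that grew out of a xenograft. The 3 libraries with gRNA 10 are labelled as RIPK2 knockout and the 3 control libraries, all with the control guide numbered 1, as wild type. These 6 of the 27 libraries of the series were chosen by their titles, and all expressed genes were examined: 15198 of the 24379 gene symbols listed for the line. The other 22Rv1 libraries, 3 with RIPK2 gRNA 1, share the control and entered the same fit. The gRNA 10 and control libraries of DU145 and PC3, a pair of prostate carcinoma lines widely used as models of androgen-independent growth, were used to compare the effect of the same guide. No treatment is given in the labels for any group. Whether each population grew from 1 clone or was pooled after editing is not given in the sources used here, and RIPK2 protein was not analysed here. Nothing in the labels says that the 3 libraries of a group came from separate cultures, so the p-values measure the spread between these libraries, which may be technical.

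RIPK2 is a serine/threonine and tyrosine kinase that binds the peptidoglycan sensors NOD1 and NOD2 through its caspase recruitment domain. Ubiquitin chains attached to it by XIAP and other ligases recruit the TAK1 and IKK kinase complexes, which turn on NF-kB target genes and the JNK and p38 kinases. In prostate epithelium androgens drive secretory genes such as the kallikreins, and prostate carcinoma cells keep much of that programme.

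The 6 libraries held 18665584 to 19417954 counts each. Levels are given as CPM, counts per 1000000 counts of the TMM-scaled library, as 1 value per library or as mean ± SD over 3 libraries, and a gene was called changed at an edgeR adjusted p below 0.05. The gRNA 10 libraries were close to one another (chi-square per degree of freedom 1.77 to 2.28), while the control libraries differed more (7.46 to 19.7). Replicate 3 of gRNA 1 stood apart from its group, with 16.7% of its counts from mitochondrial genes. Without it, 8971 genes in place of 6169 were called for gRNA 10 against the control. Luminal prostate markers were present in both groups, 3 of the 8 being higher and 4 lower with gRNA 10. Their median log2 fold change was -0.28, and they summed to 2022 to 2032 CPM in the control libraries and 1881 to 1889 CPM with gRNA 10. KRT18, a luminal keratin picked after its values were seen, went against the median of the set. It was at 209, 179.9 and 196 CPM in the control libraries and 386, 379 and 363 CPM with gRNA 10. KRT18 lies on chromosome 12, where 53.1% of tested genes were called higher. The 6 basal cell markers summed to 38.4 to 49.1 CPM in the control libraries and 69.7 to 74.5 CPM with gRNA 10. Most of that sum was DST, the cytoskeletal linker dystonin, which rose (log2 fold change 0.68, adjusted p 0.00049) and was the 1 member called of 2 tested. The basal markers KRT5 and TP63 averaged below 1 CPM in both groups, and the part of basal cells in the results was not tested. The 4 endothelial markers summed to at most 0.108 CPM in the control libraries and 0.258 CPM with gRNA 10, and the 6 blood markers to 1.24 to 1.49 and 1.03 to 1.80 CPM, with CDH5 and HBB at 0 counts in all 6 libraries. In bulk RNA, fewer cells of a kind and less RNA per cell cannot be told apart.

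RIPK2 mRNA was lower with gRNA 10 in every library, at 15.8, 18.2 and 16.1 CPM in the control libraries and 5.58, 5.37 and 5.20 CPM with gRNA 10. The groups did not overlap, as was the case for 32.1% of all genes in each direction, and the log2 fold change was -1.63 (SE 0.12, adjusted p 2.13e-06). With gRNA 1, the RIPK2 level lay between these groups, at 9.42, 8.32 and 8.33 CPM, and gRNA 10 was below it by a log2 fold change of -0.69 (SE 0.12, adjusted p 0.00134). Of 36 genes written down for the NOD and RIPK2 pathway, 32 were tested, of which 3 were higher and 8 lower with gRNA 10. The median log2 fold change of the list was -0.07. Among the 15198 genes, 40.6% were called, 20% higher and 20.6% lower, and the median was 0.00. The sensors and the ligase did not pass: NOD1 was at 4.11, 4.52 and 3.70 CPM in the control libraries and 4.08, 3.41 and 3.81 CPM with gRNA 10 (log2 fold change -0.12, adjusted p 0.625), and XIAP, the ubiquitin ligase that modifies RIPK2, at 73.98, 84.7 and 70.996 CPM in the control libraries and 67.5, 67.9 and 69.7 CPM with gRNA 10 (log2 fold change -0.16, adjusted p 0.516). NOD2 had at most 1 count in any of the 6 libraries and was not tested.

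Other members of the pathway were called. CASP8, the apical caspase of death receptor signalling, fell from 7.95, 11.5 and 9.91 CPM to 2.48, 2.12 and 2.37 CPM, a log2 fold change of -2.07 (SE 0.18, adjusted p 8.43e-06). CYLD, a deubiquitinase that trims linear and K63-linked chains, fell from 33.7 ± 3.87 to 17.04 ± 0.908 CPM (SD, n = 3; log2 fold change -0.98, adjusted p 0.000574). Neither gene's groups overlapped. Picked after their values were seen, TAB2, a ubiquitin-binding adaptor of TAK1, and ERBIN, which binds NOD2, were also lower, at log2 fold changes of -0.60 and -0.44. SLC15A4, an endosomal transporter of histidine and of muropeptides, rose from 13.1, 13.7 and 12.3 CPM to 22.9, 26.6 and 22.2 CPM (log2 fold change 0.87, SE 0.12, adjusted p 0.00024). RNF31, the catalytic subunit of the linear ubiquitin ligase, rose by a log2 fold change of 0.48 (adjusted p 0.00573). MAP2K7, which activates JNK, was at 65.8, 59.2 and 70.2 CPM in the control libraries and 80.8, 80.9 and 81.7 CPM with gRNA 10, above the control by 0.32 (adjusted p 0.0324), and its adjusted p was 0.0589 to 0.0919 in 6 alternative settings, 5 of which left out 1 control or gRNA 10 library. Without gRNA 10 replicate 1, 5 rather than 8 members were called lower. Outside chromosomes 3, 7 and 12, 2 members were higher and 8 lower.

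Of 44 genes listed as NF-kB targets, the 22 with enough counts held 6 rises (27.3%) and 3 falls (13.6%). Their median log2 fold change was 0.22, and over all genes tested 20% were called higher and 20.6% lower. NFKBIA, the inhibitor that NF-kB itself induces, was at 54.6, 53.1 and 54.2 CPM in the control libraries and 56.2, 51.6 and 50.5 CPM with gRNA 10, with overlapping groups (log2 fold change -0.03, adjusted p 0.903). BCL3, an atypical inhibitor-family protein that binds p50 and p52, rose from 4.91, 3.55 and 4.77 CPM to 17.5, 20.95 and 18.4 CPM (log2 fold change 2.10, SE 0.24, adjusted p 4.89e-05). The transcription factor IRF1 rose by 1.38 (adjusted p 0.000176) and the mitochondrial superoxide dismutase SOD2 by 0.66 (adjusted p 0.00591). CD83, a surface protein of activated immune cells that was picked after its values were seen, fell from 2.57 ± 0.486 to 0.120 ± 0.0296 CPM (log2 fold change -4.34, adjusted p 2.7e-05). The chemokines and cytokines of the list, among them CXCL1, CXCL8, IL6 and TNF, were not listed or below the count filter. Leaving out gRNA 1 replicate 3 gave 10 rises, and leaving out any of control replicate 1, control replicate 3 or a gRNA 10 library gave 1 fall.

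Over all genes, 2237 (14.7%) were called and differed by 1 or more on the log2 scale, of which 1196 were higher (7.87%) and 1041 lower (6.85%). With the stricter requirement of 10 counts in every library the number was 1423. Among called genes SLC7A8 gained the most CPM. It encodes LAT2, a transporter of neutral amino acids, and was at 18.6, 18.1 and 17.3 CPM in the control libraries and 4529, 4402 and 4248 CPM with gRNA 10. The log2 fold change was 7.93 (SE 0.14, adjusted p 2.75e-10), and the gRNA 1 libraries were at 28.3, 31.5 and 38.2 CPM. SLC3A2 encodes the heavy chain CD98 that carries LAT2 and its relatives to the plasma membrane. It rose from 119, 94.995 and 120.1 CPM to 1289, 1184 and 1224 CPM (log2 fold change 3.47, SE 0.16, adjusted p 7.29e-08), with 157, 167 and 228 CPM in the gRNA 1 libraries. Both subunits of the transporter thus stood above control and gRNA 1 in all 3 gRNA 10 libraries.

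A further group of genes had almost no counts in the control. BEX1, a small X-linked gene of neurons and germ cells, had 0 counts in all 3 control libraries and 32.3, 33.1 and 28.8 CPM with gRNA 10, which is at least 196-fold higher against a floor of 3 counts per library. HNMT, which inactivates histamine by methylation, likewise went from 0 counts to 11.2, 9.91 and 11.1 CPM, at least 66.7-fold higher. Both genes were also expressed with gRNA 1, at 67.1, 69.7 and 68.99 CPM for BEX1 and 12.7, 11.1 and 9.34 CPM for HNMT.

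CHGA, the acidic protein of neuroendocrine secretory granules, had 2, 1 and 3 counts in the control libraries and 47.98, 44.1 and 44.9 CPM with gRNA 10. The ratio was 426, with a 95% interval of 196 to 1162 that covers counting error only. ITGA8, an integrin subunit that pairs with beta 1, had 1 count in the control as a whole and 13.1, 12.3 and 13.4 CPM with gRNA 10, a ratio of 726 (95% interval 130 to 28719). ARHGAP32, a GTPase activating protein, had 2 control counts and 14.05, 15.1 and 13.5 CPM with gRNA 10 (ratio 398, 95% interval 110 to 3294). The gRNA 1 libraries resembled the control for ITGA8 (at most 1 count) and gRNA 10 for ARHGAP32 (12.3, 11.2 and 12.8 CPM), and CHGA lay between at 2.87, 3.40 and 9.52 CPM. HERC6, an interferon-inducible ubiquitin ligase, went from 4 control counts in all to 5.42, 5.73 and 6.33 CPM, a log2 fold change of 6.22 (SE 0.45, adjusted p 2.1e-06).

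The remaining large rises started from a measurable level. PDZD7, a scaffold protein of sensory hair cells, rose from 1.97, 3.28 and 2.63 CPM to 331, 314 and 321 CPM (log2 fold change 6.93, SE 0.42, adjusted p 4.73e-07). ITGA7, a laminin-binding integrin subunit, rose from 4.96, 4.14 and 4.07 CPM to 338, 330.1 and 329.6 CPM (log2 fold change 6.24, SE 0.34, adjusted p 2.43e-07). TMEM184A, a membrane protein reported to bind heparin, rose from 3.36, 4.14 and 4.45 CPM to 257, 255 and 261 CPM (log2 fold change 6.01, SE 0.27, adjusted p 7.29e-08). In none of the 3 genes did the gRNA 10 libraries come within the range of the control or gRNA 1 libraries. By difference in CPM, ALB, the plasma protein albumin of hepatocytes, followed SLC7A8, rising from 98.1, 117 and 101.5 CPM to 2093, 2010.2 and 2033 CPM (log2 fold change 4.28, SE 0.36, adjusted p 6.03e-06). PTBP3, a splicing regulator of the polypyrimidine tract binding family, rose from 191, 239 and 176 CPM to 1769, 1862 and 1915 CPM (log2 fold change 3.19, SE 0.17, adjusted p 2.02e-07). For both, gRNA 1 libraries were near the control or below it, at 129, 131 and 41.99 CPM for ALB and 213, 194 and 139 CPM for PTBP3.

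The steepest falls took abundant transcripts to the edge of detection. ECM1, a secreted glycoprotein of the extracellular matrix, was at 1079.7, 1027 and 1159 CPM in the control libraries and 1.14, 1.45 and 0.618 CPM with gRNA 10, a log2 fold change of -9.99 (SE 0.25, adjusted p 1.37e-09). COL9A2, a chain of the fibril-associated collagen IX, was at 975, 783 and 1029.7 CPM in the control libraries and 1.60, 1.29 and 1.34 CPM with gRNA 10 (log2 fold change -9.36, SE 0.44, adjusted p 8.24e-08). FABP7, the brain-type fatty acid binding protein, was at 215, 254 and 211 CPM in the control libraries and 0.930, 0.671 and 0.566 CPM with gRNA 10 (log2 fold change -8.28, SE 0.17, adjusted p 4.58e-10). The gRNA 1 libraries were low for all 3 genes too, at 1.86, 1.30 and 2.38 CPM for ECM1, 2.18, 3.40 and 8.33 CPM for COL9A2 and 0.213, 0.216 and 0.178 CPM for FABP7. Those libraries are compared with the same control, so these are not independent of the gRNA 10 values.

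Among the other falls, the 4 genes that follow ended at 3 or fewer counts over the 3 gRNA 10 libraries, as did RNF182. CLSTN2, a synaptic calsyntenin, fell from 16.2, 13.7 and 13.02 CPM to 1 count (ratio 833, 95% interval 149 to 32932). FAM155A, an accessory subunit of the sodium leak channel, fell from 10.9, 12.4 and 11.8 CPM to 2 counts (ratio 340, 95% interval 93.6 to 2810). HOXD8, a homeobox gene of the HOXD cluster, fell from 6.72, 5.86 and 4.66 CPM to 1 count (ratio 334, 95% interval 59.6 to 13246). PHACTR1, an actin and phosphatase regulator, fell from 18.6, 17.6 and 17.4 CPM to 3 counts (ratio 346, 95% interval 118 to 1683). All 4 passed edgeR, with adjusted p-values of 3.01e-06, 4.59e-08, 2.42e-07 and 4.59e-08 in that order. HOXD8 differed from the others in the gRNA 1 libraries, which at 12.5, 13.1 and 15.2 CPM lay above the control. RNF182 (from 5.81, 7.26 and 6.27 CPM to 2 counts), LINC00622 (13.3 ± 1.89 to 0.120 ± 0.0597 CPM) and LHFPL4 (26.8 ± 3.31 to 0.275 ± 0.181 CPM) complete the 10 largest falls among genes averaging 100 counts or more in the higher group.

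**Figure D1:**
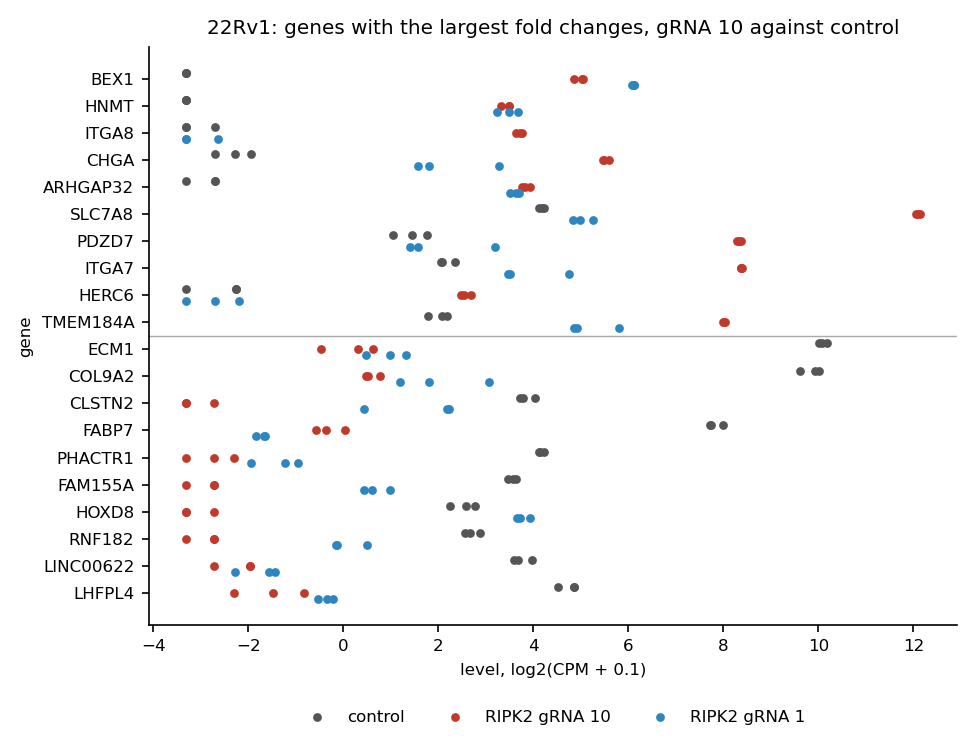
Level of the 10 genes that rose most and the 10 that fell most with gRNA 10, among those averaging 100 counts or more in the higher group, as log2(CPM + 0.1), where each point is 1 library of the control (grey), gRNA 10 (red) or gRNA 1 (blue). Red and grey points never overlap, while blue points lie near the red ones for some genes (HNMT, ARHGAP32, ECM1) and near the grey ones or beyond for others (ITGA8, HERC6, HOXD8).

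By difference in CPM, the falls were led by abundant genes. ACTG1, cytoplasmic gamma actin, went from 5218, 4413 and 5138 CPM to 2565, 2539 and 2529 CPM (log2 fold change -0.95, SE 0.11, adjusted p 6.68e-05), while its beta counterpart ACTB rose from 2685, 2388 and 2664 CPM to 4043, 3999 and 3948 CPM (log2 fold change 0.63, SE 0.09, adjusted p 0.000196). ACTB and ACTG1 are close paralogs with processed pseudogenes, and reads shared between them could have been split differently. ACTB also lies on chromosome 7, in a 25 Mb window whose median log2 fold change was 0.52. The part of either in the ACTB rise was not tested. SYT4, a synaptotagmin of dense-core vesicles, fell from 2084, 2509.8 and 2019 CPM to 267, 276 and 289 CPM (log2 fold change -2.99, SE 0.11, adjusted p 2.16e-08). CCND3, a D-type cyclin, fell from 1045, 875 and 1046 CPM to 50.6, 49.9 and 49.2 CPM (log2 fold change -4.31, SE 0.11, adjusted p 1.37e-09), whereas CCND1, another cyclin of this family, rose from 2575, 2678 and 2531 CPM to 3661, 3673 and 3823 CPM (log2 fold change 0.52, SE 0.10, adjusted p 0.00233).

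Genes next to the strongest risers were examined by position (RefSeq, GRCh38.p14), a step chosen after the values were seen. Beside SLC7A8 on chromosome 14, RNF212B rose from 0.143 ± 0.0314 to 3.32 ± 0.293 CPM (SD, n = 3; log2 fold change 4.47, adjusted p 7.14e-07), as did HOMEZ, a homeobox and leucine zipper gene (log2 fold change 1.42, adjusted p 3.02e-07). C14orf119, on the other side of SLC7A8, was not called (log2 fold change -0.32, adjusted p 0.0862). Farther out on that side, CDH24 was called higher (log2 fold change 0.90, adjusted p 0.00182). Around SLC3A2 on chromosome 11, the small nucleolar RNA host gene SNHG1 rose from 76.4 ± 10.5 to 490.2 ± 9.92 CPM (log2 fold change 2.68, adjusted p 2.96e-05), the muscarinic receptor gene CHRM1 by 2.20 and the phospholipase gene PLAAT3 by 1.54. KCNK17, a background potassium channel on chromosome 6, rose from 1.65, 1.34 and 1.88 CPM to 89.6, 87.8 and 81.4 CPM (log2 fold change 5.72, SE 0.19, adjusted p 8.89e-09), and its paralog and neighbour KCNK5 from 14.5 ± 0.618 to 101.4 ± 4.44 CPM (log2 fold change 2.81, adjusted p 2.89e-07). All 6 tested genes within 3 places of KCNK17 were called higher, against 20% of all genes tested and 19.8% of those in its 25 Mb window.

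Neighbours also rose around PDZD7, ITGA7 and TMEM184A. In the 25 Mb windows that hold ITGA7 and TMEM184A, 56.8% and 60% of tested genes were called higher, with medians of 0.44 and 0.52. In the window of PDZD7 the share was 20.3%. Next to PDZD7 on chromosome 10, KAZALD1 rose by 2.45 and SFXN3, a mitochondrial serine transporter, by 1.11. Next to ITGA7 on chromosome 12, METTL7B (2.34), RDH5 (2.47), BLOC1S1 (1.56) and the tetraspanin CD63 (1.40) were higher, while the neuronal transcription factor gene NEUROD4, 3 places away, went from 4.85, 4.09 and 4.23 CPM to 1 count over the 3 gRNA 10 libraries. Next to TMEM184A on chromosome 7, the RNA PSMG3-AS1 rose by 3.54, MAFK by 1.82, PSMG3 by 1.69 and MICALL2 by 1.61. AFP, which lies beside ALB and encodes the fetal serum protein of liver, went from 2 counts in the control as a whole to 2.07, 1.65 and 2.21 CPM (adjusted p 0.000147). Within 3 places of ALB, ADAMTS3 and RASSF6 were also called higher (log2 fold changes 0.49 and 1.35). COX18, ANKRD17 and MTHFD2L were not called.

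The falls differed among themselves in this respect. Beside ECM1 on chromosome 1, ADAMTSL4 fell from 222 ± 27.5 to 10.9 ± 0.623 CPM (log2 fold change -4.34, adjusted p 1.85e-07) and the long noncoding RNA FALEC by a log2 fold change of -3.32. The genes within 3 places of COL9A2 had log2 fold changes of -0.71 to 0.48 and those of FABP7 -0.57 to 0.23. Around 3 other risers, 1 of the 6 neighbours was called higher in each case, near the share of 20% over all genes tested. ITGA8 rose among neighbours whose log2 fold changes lay between -0.62 and 0.88, with 1 called higher and 1 lower. Around PTBP3 on chromosome 9, HSDL2 was the 1 neighbour of 6 that was called (log2 fold change 1.20, adjusted p 8.33e-05). Around CHGA, RIN3, a RAB5 exchange factor, fell (log2 fold change -3.03, adjusted p 1.18e-05), LGMN and GOLGA5 were lower (-0.41 and -0.57) and ITPK1 was higher (0.31). The libraries were strand-specific, but whether counting used the strand is not given in the sources used here, so reads of overlapping or antisense neighbours such as FALEC and PSMG3-AS1 may be shared.

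**Figure D2:**
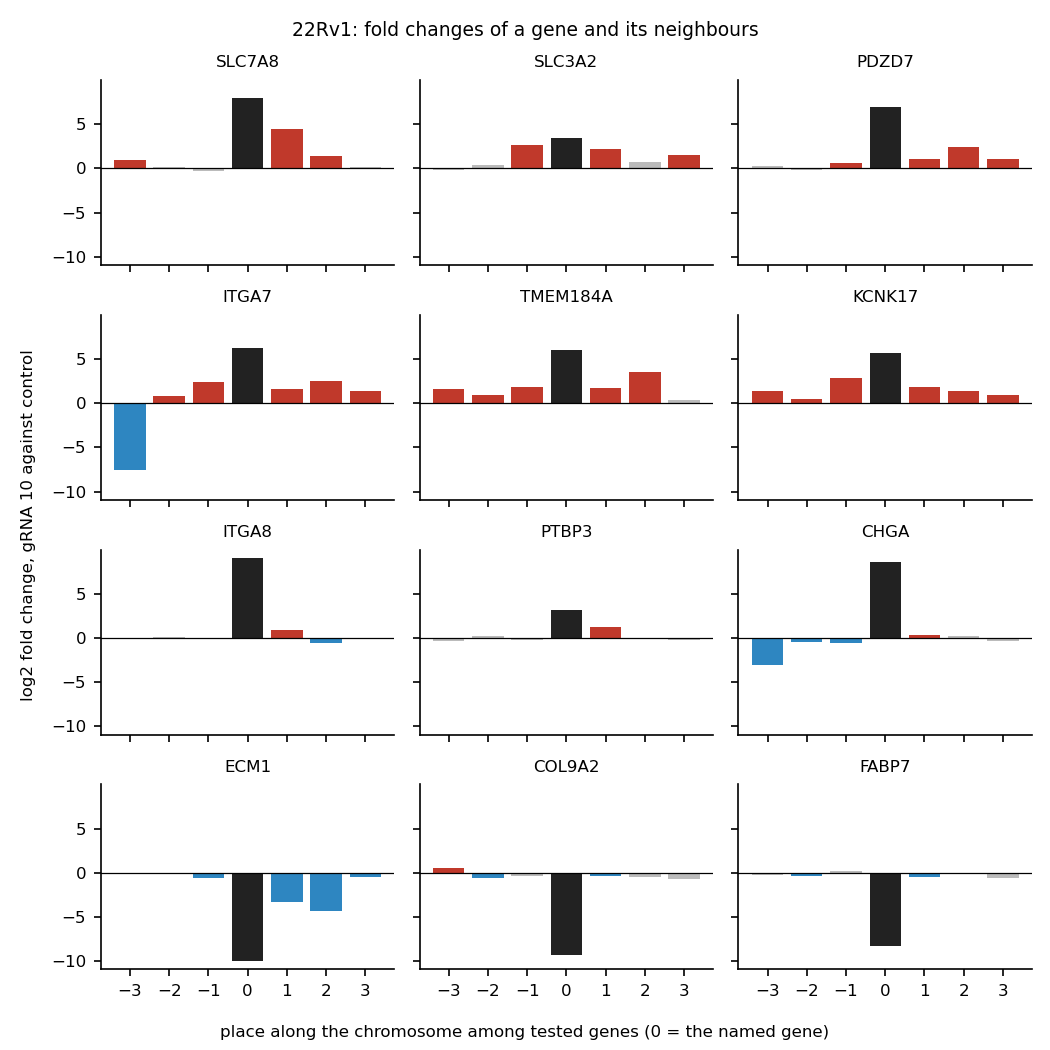
Log2 fold change of 12 genes (black bars, place 0) and of the 3 tested genes on each side in chromosome order; red and blue bars are called higher and lower, grey bars are not called. Some neighbours rise with SLC7A8, SLC3A2, PDZD7, ITGA7, TMEM184A and KCNK17 and some fall with ECM1. ITGA7 and TMEM184A lie on chromosomes 12 and 7, where many genes were called higher. Those of COL9A2 and FABP7 stay between -0.71 and 0.48, and around ITGA8, PTBP3 and CHGA few neighbours rise and RIN3, beside CHGA, falls by 3.03.

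Genes of 3 chromosomes were shifted together. Of 881 tested genes on chromosome 3, 564 (64.0%) were lower and 52 (5.90%) higher with gRNA 10, and their median log2 fold change was -0.63. Chromosome 12 held 818 tested genes, with 434 (53.1%) higher, 55 (6.72%) lower and a median of 0.44. Chromosome 7 held 758, with 347 (45.8%) higher, 64 (8.44%) lower and a median of 0.40. The medians of the other 20 chromosomes (1 to 22 and X) lay between -0.11 and 0.09. These 3 chromosomes held 16.2% of the positioned genes and 24.6% of those called, and among the 12718 genes elsewhere 4642 (36.5%) were called.

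In windows of 25 Mb with at least 30 tested genes, medians were -0.73 to -0.46 along chromosome 3 and 0.34 to 0.51 along chromosome 12. Chromosome 7 was divided: its 5 windows up to 125 Mb had medians of 0.48 to 0.60, while the 124 tested genes from 125 to 150 Mb and the 46 beyond had medians of -0.03 and -0.04. In the gRNA 1 libraries, against the same control, those last windows were at 0.53 and 0.65, close to the 0.49 to 0.61 of the windows before them. Chromosome 3 genes supplied 7.42, 7.55 and 7.34% of the CPM of tested genes in the control libraries and 4.97, 4.98 and 5.02% with gRNA 10. Chromosome 12 genes supplied 7.47, 7.51 and 7.42% against 9.84, 9.81 and 9.79%, and chromosome 7 genes 3.98, 3.98 and 3.95% against 5.20, 5.20 and 5.23%. For each of the 3 chromosomes the libraries of the groups did not overlap; 3 against 3 libraries cannot give an exact permutation p below 0.1.

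Against the gRNA 1 libraries, the gRNA 10 medians of the 3 chromosomes were -0.03, -0.15 and 0.05 for chromosomes 3, 7 and 12. The medians of gRNA 1 against the same control libraries were -0.59, 0.56 and 0.40. In the other lines, gRNA 10 against control had medians of -0.12, -0.24 and 0.03 in DU145 and 0.02, -0.26 and 0.00 in PC3 for the same chromosomes. In those lines the medians of the other 20 chromosomes spanned -0.44 to 0.33 (DU145) and -0.28 to 0.43 (PC3). DNA copy number was not analysed here, and its part in the result was not tested.

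**Figure D3:**
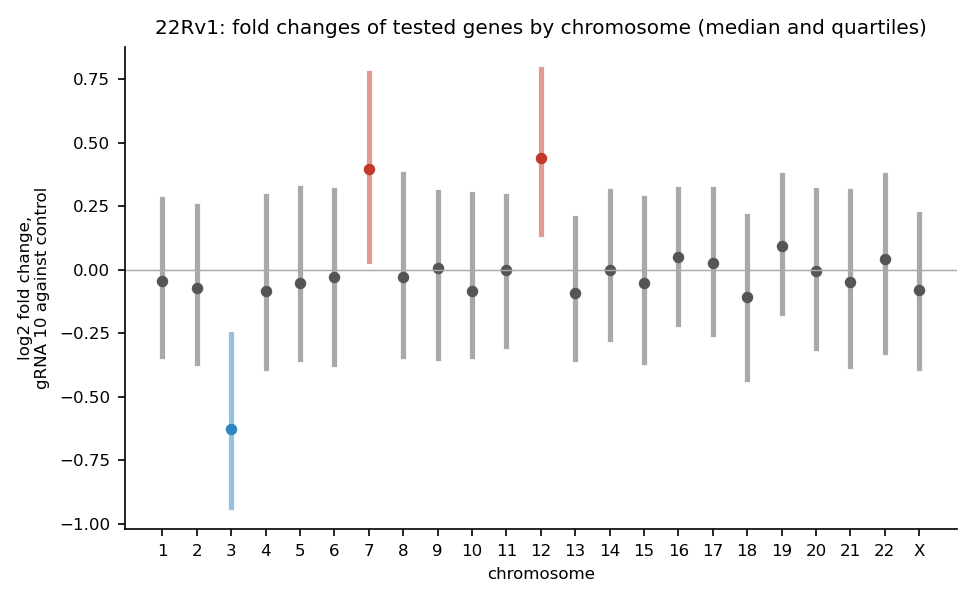
Median (point) and quartiles (bar) of the log2 fold change of gRNA 10 against control over the tested genes of each chromosome. Chromosome 3 lies at -0.63 and chromosomes 7 and 12 at 0.40 and 0.44, and the other medians stay within -0.11 to 0.09.

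Androgen response genes were called lower more often than higher. Of 41 tested, 20 were lower (48.8%) and 9 higher (22.0%), against 20.6% and 20% of all genes, so the rises lay near the share of all genes. The median log2 fold change was -0.08. Outside chromosomes 3, 7 and 12 the list had 18 falls, 7 rises and a median of -0.44. PMEPA1, a membrane protein that restrains TGF-beta and androgen signalling, fell from 947, 876 and 915 CPM to 136, 132 and 124 CPM (log2 fold change -2.81, SE 0.14, adjusted p 1.62e-07). KLK4, a kallikrein protease of the prostate, fell from 623, 469 and 617 CPM to 107, 102 and 99.4 CPM (log2 fold change -2.47, SE 0.16, adjusted p 1.07e-06), and its relative KLK15 from 8.001, 6.67 and 8.14 CPM to 2.01, 1.60 and 2.01 CPM (log2 fold change -2.02, SE 0.22, adjusted p 4.27e-05). With gRNA 1, PMEPA1 was at 100.2, 105 and 69.7 CPM and KLK4 at 487, 528 and 732 CPM.

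KLK3, which encodes prostate-specific antigen, and KLK2, which were picked after their values were seen, moved the other way. KLK3 was at 19.8, 19.1 and 21.5 CPM in the control libraries and 36.6, 31.5 and 36.6 CPM with gRNA 10 (log2 fold change 0.79, SE 0.18, adjusted p 0.00453) and KLK2 at 91.95, 98.4 and 109 CPM in the control libraries and 162, 154 and 159 CPM with gRNA 10 (log2 fold change 0.66, SE 0.16, adjusted p 0.00831). Neither gene's groups overlapped. Canonical induced targets that fell, picked likewise, were FKBP5, the immunophilin that chaperones steroid receptors (830.4 ± 56.2 to 353 ± 2.90 CPM; log2 fold change -1.23, adjusted p 0.000411), and the metalloreductase STEAP1 (143 ± 15.1 to 47.9 ± 2.69 CPM; log2 fold change -1.57, adjusted p 2.15e-06). MAF, a leucine zipper transcription factor, had the deepest fall of the list (log2 fold change -2.91, adjusted p 5.7e-05). The largest rise was in UGT2B15, which glucuronidates androgens, from 12.2, 13.5 and 11.6 CPM to 177, 176 and 179.5 CPM (log2 fold change 3.83, SE 0.10, adjusted p 1.37e-09). NDRG1 rose from 20.8 ± 2.47 to 65.1 ± 3.24 CPM (log2 fold change 1.65, adjusted p 9.71e-07) and HPGD, which oxidises prostaglandins, from 78.1 ± 13.2 to 154 ± 1.70 CPM (log2 fold change 0.98, adjusted p 0.0018). None of the named targets had overlapping groups. Kallikreins and UGT2B genes lie in clusters of similar paralogs, so their split of reads is uncertain. Without gRNA 1 replicate 3, 14 members were called higher.

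Growth-related lists are given beside the shares of all genes tested, 20% called higher and 20.6% lower. Of 37 p53 targets, 18 were higher (48.6%) and 5 lower (13.5%), with a median log2 fold change of 0.36. CDKN1A, the p21 inhibitor of cyclin-dependent kinases, rose from 21.4, 20.6 and 20.6 CPM to 133, 132 and 117 CPM (log2 fold change 2.61, SE 0.13, adjusted p 1.23e-07). PHLDA3, an inhibitor of AKT, rose from 2.19, 1.72 and 2.52 CPM to 21.02, 20.4 and 20.6 CPM (log2 fold change 3.27, SE 0.15, adjusted p 7.29e-08), and the stress cytokine GDF15 from 10.5, 6.34 and 10.2 CPM to 48.3, 49.3 and 49.2 CPM (log2 fold change 2.44, SE 0.16, adjusted p 9.02e-07). All 3 genes were higher in every gRNA 10 library than in any control library. With the other guide, CDKN1A was at 114, 113 and 84.8 CPM, PHLDA3 at 18.8, 17.3 and 20.5 CPM and GDF15 at 55.5, 56.5 and 54.8 CPM. MDM2, the ligase that p53 induces, was not called (log2 fold change 0.21, adjusted p 0.11). The deepest fall was in TP53I3, a quinone oxidoreductase, from 3.48 ± 0.322 to 1.27 ± 0.109 CPM (log2 fold change -1.45, adjusted p 0.00333). TP53INP1 went from 120.2 ± 14.4 to 68.8 ± 5.63 CPM (log2 fold change -0.80, adjusted p 0.00307) and the BH3-only gene PMAIP1 from 17.3 ± 1.04 to 10.95 ± 0.917 CPM (log2 fold change -0.66, adjusted p 0.00354).

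Genes of DNA replication and the G1/S transition (43 tested) held 9 rises (20.9%) and 7 falls (16.3%) with a median of 0.06. Mitotic genes (40 tested) held 5 rises (12.5%) and 13 falls (32.5%) with a median of -0.20. Over all genes tested the shares were 20% and 20.6%, and the replication list lay near them. CKS2, a cyclin-dependent kinase subunit, fell from 377, 365 and 356 CPM to 84.9, 82.4 and 83.4 CPM (log2 fold change -2.13, SE 0.14, adjusted p 9.71e-07), and the spindle-associated HMMR by a log2 fold change of -0.74. The mitotic scaffold ANLN rose from 139 ± 16.6 to 259.7 ± 7.07 CPM (log2 fold change 0.91, adjusted p 0.000114) and the transcription factor FOXM1 from 227 ± 10.3 to 358 ± 8.83 CPM (log2 fold change 0.66, adjusted p 0.000366); ANLN lies on chromosome 7 and FOXM1 on chromosome 12. Outside chromosomes 3, 7 and 12, 3 mitotic genes were higher and 12 lower, and without gRNA 10 replicate 1 only 7 were called lower. MYC was at 429, 374 and 388 CPM in the control libraries and 352, 343 and 346 CPM with gRNA 10 with a log2 fold change of -0.19, and its adjusted p of 0.0771 fell to 0.0195 without gRNA 1 replicate 3. The 57 MYC and nucleolar target genes held 11 rises (19.3%) and 12 falls (21.1%), near the shares of all genes, with a median of -0.08. Without gRNA 1 replicate 3 the falls of this list numbered 26.

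Receptors, ligands and feedback genes of the EGF receptor and MAP kinase pathway held more rises than falls. Of 39 tested, 17 rose (43.6%) and 2 fell (5.13%), against 20% and 20.6% of all genes, and the median log2 fold change was 0.54. ETV4 and ETV1, ETS factors induced by ERK signalling, rose from 7.35 ± 0.563 to 26.5 ± 1.69 CPM (log2 fold change 1.85, adjusted p 8.66e-06) and from 9.30 ± 1.51 to 31.3 ± 0.396 CPM (log2 fold change 1.75, adjusted p 0.00105). DUSP6, the phosphatase that switches ERK off, rose from 4.43, 4.03 and 4.45 CPM to 14.3, 14.6 and 14.6 CPM (log2 fold change 1.75, SE 0.23, adjusted p 0.000132). ERBB3, which signals as a partner of ERBB2 and was picked after its values were seen, rose from 80.8, 76.2 and 76.2 CPM to 205, 209 and 200.3 CPM (log2 fold change 1.40, SE 0.08, adjusted p 3.04e-07). ERBB3 and DUSP6 are among the 4 tested members on chromosome 12, and ETV1 is 1 of 2 on chromosome 7. DUSP10, a phosphatase of p38 and JNK, stood against the others and fell from 127, 146 and 125 CPM to 8.16, 9.03 and 7.36 CPM (log2 fold change -4.02, SE 0.12, adjusted p 3.82e-09). The immediate early genes JUN, FOS and EGR1 did not pass. Outside chromosomes 3, 7 and 12 the counts were 12 rises and 1 fall. The JNK and p38 cascade (34 tested) had 11 rises (32.4%) and 8 falls (23.5%). These counts went down to 5 and 4 when 1 library was left out.

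Detoxifying enzymes and targets of NRF2, the transcription factor of the antioxidant response, held 20 rises (46.5%) and 4 falls (9.30%) among 43 tested. Their median was 0.28, and over all genes 20% rose and 20.6% fell. The aldo-keto reductase AKR1C1 rose from 1.23, 1.18 and 1.29 CPM to 7.80, 8.41 and 9.06 CPM (log2 fold change 2.77, SE 0.22, adjusted p 3.5e-06). ABCC2, an export pump for conjugates, rose from 4.96 ± 0.411 to 31.2 ± 0.431 CPM (log2 fold change 2.65, adjusted p 1.61e-06). NNMT, which methylates nicotinamide, fell from 4.63 ± 1.55 to 0.447 ± 0.194 CPM (log2 fold change -3.35, adjusted p 4.32e-05), and the pentose phosphate enzymes TKT and TALDO1 were lower, with log2 fold changes of -0.59 and -0.37. AKR1C genes are close paralogs, so the division of reads between them is uncertain.

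Metallothioneins, small cysteine-rich proteins that bind zinc and copper, went the other way. The list has 14 genes, including a zinc exporter and a regulator, of which 7 were tested, 4 falling and 1 rising, with a median of -1.26. Over all genes, 20.6% fell and 20% rose. MT2A was at 80.2, 64.03 and 74.6 CPM in the control libraries and 31.7, 29.003 and 30.9 CPM with gRNA 10 (log2 fold change -1.26, SE 0.10, adjusted p 4.85e-06), MT1G at 26.8, 26.3 and 25.3 CPM in the control libraries and 3.51, 3.15 and 3.91 CPM with gRNA 10 (log2 fold change -2.89, SE 0.14, adjusted p 1.02e-07) and MT1E at 8.48, 6.72 and 8.47 CPM in the control libraries and 0.723, 0.671 and 1.03 CPM with gRNA 10 (log2 fold change -3.28, SE 0.20, adjusted p 6.61e-07). Groups did not overlap for any of them. MT1F was lower (log2 fold change -1.32, adjusted p 0.00247), MT1X did not pass (log2 fold change -1.20, adjusted p 0.0541), and the metal-sensing factor MTF1 was at a log2 fold change of -0.25 (adjusted p 0.179). The zinc exporter SLC30A1 was higher (log2 fold change 0.47, adjusted p 0.0374) but lost its call when any of control replicate 1, control replicate 3 or a gRNA 10 library was left out. The gRNA 1 libraries held MT1E at 24.2, 24.6 and 30.6 CPM, above the control, and MT1G at 11.3, 13.3 and 10.2 CPM, so that gRNA 10 was the lowest of the 3 groups for both. Metallothionein genes are near-identical copies and their counts are uncertain for this reason.

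The 250 bases before the start of MT2A and MT1X, 1 called and 1 not called member, are shown because metallothionein genes are induced through metal response elements in this window. Sequences are from RefSeq (GRCh38.p14, plus strand, MT2A at chr16:56608334-56608583 and MT1X at chr16:56682220-56682469), printed 5′ to 3′. Capitals mark matches to the core TGCNCNC on either strand; overlapping matches were allowed.
MT2A: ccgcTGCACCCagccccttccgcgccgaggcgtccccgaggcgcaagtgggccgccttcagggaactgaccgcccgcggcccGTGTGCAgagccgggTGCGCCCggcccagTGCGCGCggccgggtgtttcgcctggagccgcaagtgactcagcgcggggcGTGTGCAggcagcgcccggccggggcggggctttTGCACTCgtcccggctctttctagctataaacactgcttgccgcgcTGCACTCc
MT1X: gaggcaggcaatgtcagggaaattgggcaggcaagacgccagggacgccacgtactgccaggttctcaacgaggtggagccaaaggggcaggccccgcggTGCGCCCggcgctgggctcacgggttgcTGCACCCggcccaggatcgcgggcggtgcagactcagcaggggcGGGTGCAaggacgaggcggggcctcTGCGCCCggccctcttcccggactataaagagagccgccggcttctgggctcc
The MT2A window held 7 matches and the MT1X window 4. Of 22114 promoters of this length, 47.7% held at least 1 match, 1.66% at least 4 and 0.479% at least 5. A match is a run of letters and not an observed binding site.

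Matrix, laminin and integrin genes were changed in most cases. Of 52 tested on the mesenchymal and matrix list, 27 were higher (51.9%) and 10 lower (19.2%), against 20% and 20.6% of all genes. The median log2 fold change of the list was 0.61. The summed level of its genes nevertheless went from 3225 to 3552 CPM in the control libraries to 1807 to 1813 CPM. That sum includes the abundant genes ECM1 and COL9A2. TNC, the matrix glycoprotein tenascin C, rose from 11.4, 8.98 and 8.04 CPM to 53.5, 53.6 and 49.2 CPM (log2 fold change 2.46, SE 0.15, adjusted p 5.42e-07), the laminin chain LAMB3 from 0.518 ± 0.125 to 4.18 ± 0.469 CPM (log2 fold change 3.00, adjusted p 3.11e-06) and the collagen-binding integrin ITGA1 from 7.54 ± 0.605 to 36.97 ± 1.06 CPM (log2 fold change 2.29, adjusted p 1.01e-05). MMP14, a membrane-anchored matrix metalloproteinase, fell from 19.8, 16.7 and 21.6 CPM to 1.39, 1.34 and 1.39 CPM (log2 fold change -3.81, SE 0.27, adjusted p 1.53e-06). VIM, which encodes the mesenchymal filament vimentin and is one of the markers, was lower (13.3 ± 1.05 to 6.28 ± 0.764 CPM; log2 fold change -1.09, adjusted p 8.89e-05). Of the 8 mesenchymal or fibroblast markers, 4 were tested, and they gave 2 rises and that 1 fall. COL1A1, a chain of type I collagen, rose from 8.85, 7.80 and 9.91 CPM to 22.3, 21.6 and 24.2 CPM (log2 fold change 1.36, SE 0.31, adjusted p 0.0051), and the other rise was in COL3A1 (log2 fold change 0.65, adjusted p 0.03). The markers summed to 24.1 to 24.8 CPM in the control libraries and 30.1 to 33.7 CPM with gRNA 10, while COL1A2 and DCN averaged below 1 CPM in both groups. The part of such cells in the matrix genes was not tested.

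Axon guidance genes (46 tested) held 15 rises (32.6%) and 8 falls (17.4%), against 20% and 20.6% of all genes, with a median of 0.24. SEMA3C, a secreted semaphorin, rose from 4.16, 5.21 and 5.57 CPM to 60.3, 61.1 and 64.1 CPM (log2 fold change 3.63, SE 0.23, adjusted p 6.4e-07), and the ephrin receptor EPHA3 fell from 745, 869.6 and 690.4 CPM to 151, 169 and 166 CPM (log2 fold change -2.25, SE 0.11, adjusted p 1.23e-07). Neither gene's groups overlapped. Outside chromosomes 3, 7 and 12 the counts were 10 rises and 5 falls. SEMA3C lies on chromosome 7 and EPHA3 on chromosome 3.

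Neuroendocrine and neuronal genes (36 tested) rose and fell in like numbers, 12 (33.3%) and 11 (30.6%), against 20% and 20.6% of all genes. Beside CHGA, the granin CHGB rose from 9.28, 8.87 and 8.52 CPM to 28.8, 30.8 and 30.7 CPM (log2 fold change 1.76, SE 0.26, adjusted p 0.000315), and the splicing factor CELF3 from 14.3 ± 1.36 to 43.1 ± 1.28 CPM (log2 fold change 1.59, adjusted p 0.00182). Synaptophysin (SYP) did not pass (log2 fold change 0.16, adjusted p 0.21), and INSM1 and NCAM1 stayed under 0.1 CPM on average in both groups; these are members of the marker set. SOX11, a developmental transcription factor, fell from 18.9, 17.5 and 18.7 CPM to 0.516, 0.464 and 0.257 CPM (log2 fold change -5.45, SE 0.21, adjusted p 2.32e-08) and NEFH, the heavy neurofilament chain, from 161, 168 and 176 CPM to 7.95, 7.84 and 7.16 CPM (log2 fold change -4.46, SE 0.20, adjusted p 7.17e-08).

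The BEX and TCEAL genes form a cluster on the X chromosome that encodes small regulators of transcription and signalling. All 11 tested members were called, against 40.6% of all genes tested. Of the 11, 10 were lower, against 20.6% of all genes, with BEX1 the single rise. TCEAL2 fell from 7.04, 7.90 and 7.66 CPM to 0.981, 0.671 and 0.721 CPM (log2 fold change -3.24, SE 0.33, adjusted p 2.31e-05), BEX4 from 58.8, 66.5 and 65.6 CPM to 19.5, 20.02 and 19.4 CPM (log2 fold change -1.70, SE 0.12, adjusted p 1.7e-06) and TCEAL9 from 49.5, 65.4 and 48.9 CPM to 24.9, 25.5 and 23.9 CPM (log2 fold change -1.14, SE 0.14, adjusted p 0.000107). The other falls ranged from -1.14 to -0.38 on the log2 scale, and the median of the 11 was -0.73. BEX and TCEAL members are paralogs, so reads shared between them could be divided otherwise.

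MHC class I antigen presentation, by which peptides are shown to T cells, held 11 falls (55%) and 2 rises (10%) among 20 tested genes. The median was -0.31, and over all genes 20.6% fell and 20% rose. HLA-B fell from 28.5, 22.7 and 30.8 CPM to 9.97, 8.52 and 11.5 CPM (log2 fold change -1.45, SE 0.28, adjusted p 0.00174), and the immunoproteasome subunit PSMB8 from 4.39 ± 0.339 to 2.03 ± 0.232 CPM (log2 fold change -1.11, adjusted p 0.0042). B2M, the light chain of every class I molecule and a member picked after its values were seen, fell from 295, 327 and 284 CPM to 182, 177 and 174 CPM (log2 fold change -0.76, SE 0.11, adjusted p 0.000322). The 2 rises, TAPBP and PSME2, were not called when gRNA 10 replicate 1, 2 or 3 was left out. HLA genes are polymorphic and similar, so their counts depend on how reads were assigned.

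Interferon response genes (37 tested) held 10 falls and 7 rises with a median of -0.12. IFI44L fell from 13.1, 17.5 and 14.4 CPM to 0.310, 0.361 and 0.206 CPM (log2 fold change -5.65, SE 0.23, adjusted p 3.65e-08), and HERC5 from 15.8, 16.4 and 13.2 CPM to 5.37, 4.33 and 5.10 CPM (log2 fold change -1.62, SE 0.18, adjusted p 4.8e-05) while its neighbour HERC6 rose. STAT2, a subunit of the factor that drives these genes, rose from 23.3 ± 2.03 to 51.8 ± 2.67 CPM (log2 fold change 1.15, adjusted p 4.64e-05) and lies on chromosome 12. Without gRNA 1 replicate 3 there were 16 falls and 12 rises. Outside chromosomes 3, 7 and 12, where 30 members were tested, 6 fell and 5 rose, near the shares of all genes.

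Lipid genes were divided. Of 34 tested genes of fatty acid and retinoid binding, lipid droplets and PPAR targets, 9 rose (26.5%) and 11 fell (32.4%). LPL, the lipase that frees fatty acids from triglyceride-rich particles, fell from 233, 262 and 215 CPM to 4.91, 4.85 and 5.46 CPM (log2 fold change -5.54, SE 0.18, adjusted p 9.21e-09), beside the fall of FABP7 given above. ALDH1A1, which makes retinoic acid, rose from 8.11, 7.37 and 6.16 CPM to 49.01, 47.8 and 48.6 CPM (log2 fold change 2.75, SE 0.14, adjusted p 1.3e-07), and the retinoic acid binding protein CRABP1 from 1.61 ± 0.227 to 10.9 ± 1.05 CPM (log2 fold change 2.76, adjusted p 4.5e-05). Neither LPL nor ALDH1A1 had overlapping groups. Among 38 cholesterol and fatty acid synthesis genes, 6 rose (15.8%) and 7 fell (18.4%), against 20% and 20.6% of all genes. The elongase ELOVL5 fell from 565 ± 50.6 to 228 ± 1.70 CPM (log2 fold change -1.31, adjusted p 0.00491). The gRNA 1 libraries held LPL at 0.905, 0.648 and 1.61 CPM. Without gRNA 1 replicate 3 the synthesis list had 11 rises and 17 falls.

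Amino acid and stress response genes did not move as 1 block. The ATF4 and unfolded protein response list had 10 rises (22.7%) and 15 falls (34.1%) among 44 genes, with a median of -0.13. Over all genes, 20% were called higher and 20.6% lower. PHGDH, the first enzyme of serine synthesis, fell from 1040.3, 860.2 and 1058 CPM to 128, 118 and 118 CPM (log2 fold change -3.03, SE 0.15, adjusted p 1.52e-07), in contrast to SLC3A2. MANF and EDEM1, secretory pathway genes that lie on chromosome 3, were lower, with log2 fold changes of -1.53 and -1.78. Outside chromosomes 3, 7 and 12 the counts were 6 rises and 10 falls. Hypoxia and glycolysis genes (41 tested) held 14 rises and 7 falls, with the carbonic anhydrase CA12 rising from 9.81, 10.2 and 10.7 CPM to 42.2, 41.3 and 40.1 CPM (log2 fold change 2.01, SE 0.10, adjusted p 9.75e-08). The falls numbered 3 when gRNA 10 replicate 1, 2 or 3 was left out.

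Cytosolic ribosomal protein genes (77 tested) held 15 falls (19.5%) and 5 rises (6.49%), against 20.6% and 20% of all genes. Their median of -0.04 was close to that of all genes. RPL15 fell from 2322, 2034 and 2335 CPM to 1247, 1203 and 1251 CPM (log2 fold change -0.85, SE 0.08, adjusted p 1.66e-05) and RPSA from 3571, 3176 and 3438 CPM to 1992, 1855 and 1889 CPM (log2 fold change -0.83, SE 0.16, adjusted p 0.0023), both on chromosome 3, and RPL41, on chromosome 12, rose by 0.76. Outside chromosomes 3, 7 and 12, 7 were lower and 2 higher. None of the 13 mitochondrially encoded protein genes was called by edgeR in the fit of 9 libraries, though their median log2 fold change was 0.76; without gRNA 1 replicate 3, 4 were higher and 1 lower, and without control replicate 1 the median was 0.44. Mitochondrial genes took 0.515, 1.24 and 1.28% of the counts in the control libraries and 1.81, 2.06 and 1.90% with gRNA 10. The groups did not overlap, and the exact two-sided permutation p of 0.1 is the smallest that 3 against 3 libraries allow.

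**Figure D4:**
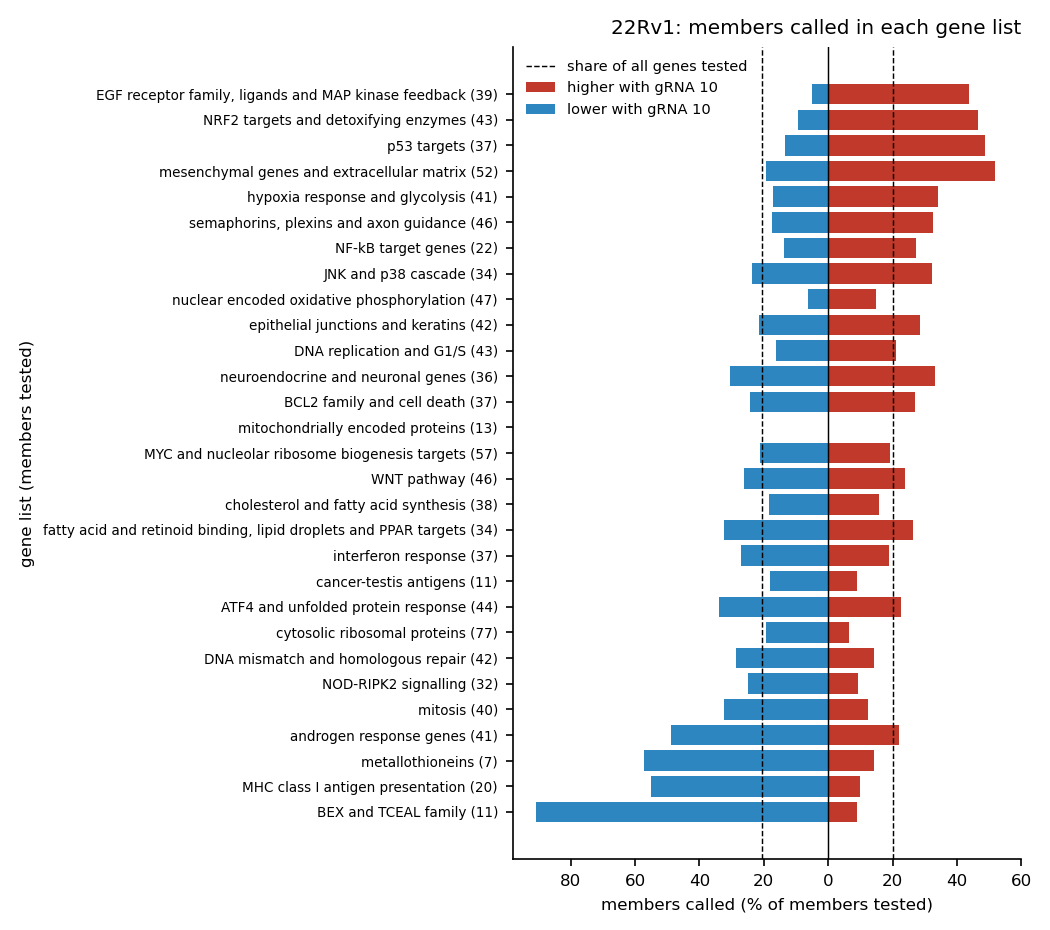
Percentage of tested members of each gene list called higher (red, to the right) or lower (blue, to the left) with gRNA 10; dashed lines mark the shares over all genes tested, 20% higher and 20.6% lower. The EGF receptor, NRF2, p53 and matrix lists reach furthest to the right, and the BEX and TCEAL, MHC class I, metallothionein and androgen response lists to the left.

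The remaining lists stand beside 20% of all genes called higher and 20.6% lower. Nuclear genes of oxidative phosphorylation held 7 rises (14.9%) and 3 falls (6.38%) among 47 tested. DNA repair genes held 6 rises (14.3%) and 12 falls (28.6%) among 42. In the WNT list (46 tested) 11 rose and 12 fell, among them the transcription factor LEF1, from 2.77, 3.12 and 3.16 CPM to 16.01, 14.9 and 16.1 CPM (log2 fold change 2.37, SE 0.12, adjusted p 1.62e-07), and the ligand WNT5A, from 10.1, 9.57 and 7.77 CPM to 1.39, 1.497 and 2.01 CPM (log2 fold change -2.48, SE 0.20, adjusted p 4.27e-06). The groups of both genes lay apart. For the WNT list as a whole the shares were 23.9% higher and 26.1% lower. Outside chromosomes 3, 7 and 12, where 34 members were tested, 6 rose and 7 fell, near the shares of all genes. WNT5A lies on chromosome 3. Of 37 genes of the BCL2 family and cell death, 10 rose and 9 fell. TNFRSF10D, a decoy receptor for TRAIL, rose from 6.45, 5.64 and 6.54 CPM to 38.4, 39.01 and 42.8 CPM (log2 fold change 2.69, SE 0.13, adjusted p 1.2e-07). Epithelial junction and keratin genes (42 tested) held 12 rises and 9 falls, with the epithelial transcription factor ELF3 rising from 7.73, 6.29 and 8.31 CPM to 33.1, 31.8 and 32.9 CPM (log2 fold change 2.13, SE 0.23, adjusted p 3.28e-05) and KRT19 falling from 7.05 ± 0.804 to 1.70 ± 0.288 CPM (log2 fold change -2.05, adjusted p 0.000896). Of 11 cancer-testis antigens with enough counts, MAGEA1 fell from 139.8 ± 6.56 to 75.6 ± 1.998 CPM (log2 fold change -0.89, adjusted p 1.18e-05), and 1 other gene fell and 1 rose.

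The 2 RIPK2 guides gave populations that also differed from each other. Directly compared, gRNA 10 differed from gRNA 1 in 5410 genes (35.6%), with 2546 higher (16.8%) and 2864 lower (18.8%). A further count was limited to genes averaging 100 counts or more in gRNA 10, gRNA 1 or control. Of these, 1769 were called against both control and gRNA 1 in one direction, 943 higher and 826 lower. How many genes met the limit was not counted, so no share is given. Beside SLC7A8, ITGA8, HERC6, PDZD7 and KCNK17, which were higher than both, the 5 genes furthest below both were HOXD8, CLSTN2, FAM155A, POU3F3 and ADA2. POU3F3, a POU-domain factor of neural development, was at 29.8, 29.9 and 31.99 CPM in the control libraries and 0.362, 0.361 and 0.463 CPM with gRNA 10, with 28.8, 28.6 and 40.4 CPM in the gRNA 1 libraries. ADA2, a secreted adenosine deaminase, was at 10.3, 12.8 and 12.2 CPM in the control libraries and 0.310, 0.361 and 0.206 CPM with gRNA 10, with 11.2, 12.8 and 12.1 CPM for gRNA 1. The log2 fold changes of gRNA 10 against gRNA 1 were -6.34 (SE 0.21, adjusted p 1.74e-08) for POU3F3 and -5.33 (SE 0.21, adjusted p 3.96e-08) for ADA2. Against the shared control, gRNA 1 alone gave 7377 calls (48.5%).

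The same guide in DU145 and PC3 gave 5956 (40%) and 10815 (73.5%) calls. Of genes tested in both lines, 2321 were called in 22Rv1 and DU145, which is 43.4% of the 22Rv1 calls and 43.2% of the DU145 calls, and 1088 of them (46.9%) had the same direction. For PC3 the number was 3991, or 75.7% of the 22Rv1 calls and 40.5% of the PC3 calls, with 1953 (48.9%) in the same direction. In both pairs of lines, fewer of the shared calls had the same direction than opposite directions. Of 1671 genes called in all 3 lines, 364 went one way in all of them, 190 up and 174 down. Unrelated directions would also give such genes, and a response shared by the lines was not tested. The difference of the gRNA 10 effect itself was called for 7300 of 16322 genes between 22Rv1 and DU145 (44.7%) and for 7772 between 22Rv1 and PC3 (47.6%).

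RIPK2 fell further in 22Rv1 than elsewhere. Its log2 fold change of -1.63 stood beside -0.29 in DU145 and -1.15 in PC3, and the differences of -1.34 and -0.44 were called (adjusted p 1.37e-08 and 0.00905). The genes that follow were picked by direction and size from the 364 that went one way in all lines. Genes that rose in all 3 lines included the aldo-keto reductase AKR1C1 (2.77 in 22Rv1, 1.86 in DU145 and 2.83 in PC3). Its relative AKR1C2 (2.33, 1.88 and 3.92) and GDF15 (2.44, 1.32 and 1.53) also rose. PLXNA2, a semaphorin receptor, and NPTX1, a neuronal pentraxin, completed the set of 5 with 1.28 and 1.20 in 22Rv1. Genes that fell in all 3 lines included CAV1, the coat protein of caveolae (-3.29, -0.91 and -2.05), SOCS2, a feedback inhibitor of cytokine receptors (-3.16, -1.18 and -1.36), and ANGPTL4, an inhibitor of lipoprotein lipase (-1.33, -2.98 and -2.31). The transporter SLC47A1 and WLS, the carrier of WNT proteins, had log2 fold changes of -1.17 and -0.74 in 22Rv1. CAV1 was at 23.5, 27.8 and 24.8 CPM in the control libraries and 2.58, 2.63 and 2.52 CPM with gRNA 10, and SOCS2 at 11.8, 13.3 and 13.9 CPM in the control libraries and 1.34, 1.34 and 1.65 CPM with gRNA 10.

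The 3 rises and 3 falls in 22Rv1 that differed most from both other lines were mostly among the largest changes given above. TMEM184A, which rose here, had log2 fold changes of -0.83 in DU145 and -0.73 in PC3, and ARHGAP32 0.22 and -0.24. ECM1 was at 1.12 and 0.06, COL9A2 at 0.20 and 1.09, and RNF182 at 0.98 and 1.13, each against a fall here. HNMT had a log2 fold change of -1.55 in PC3 and had too few counts for a test in DU145. The difference from each line was called for all 6 genes, with adjusted p-values of at most 0.000601 (HNMT against DU145).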

How the data were processed

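The deposited table for 22Rv1 holds gene counts, whole reads per gene symbol that the authors had not normalized. Per the labels' protocols, RNA was purified with an RNeasy kit, and strand-specific mRNA libraries were read as read pairs on DNBSEQ. The submitters' processing notes name FastQC, STAR, edgeR and the build hg38, without versions or roles. The counting program, its strand setting and the annotation are not given in the sources used here.

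Of 24385 rows, 6 symbols occurred more than once and were summed. All 9 libraries of the line were fitted together in edgeR 4.0.16 (R 4.3.3) after filtering (minimum count 10, minimum total 15) and TMM scaling, with quasi-likelihood F tests and Benjamini-Hochberg adjustment over all genes tested at 0.05. The limit of detection was set at 3 counts, or 0.161 CPM in the control and 0.155 CPM with gRNA 10; intervals and floors cover counting error only. The difference between lines was tested as an interaction over all 27 libraries. Alternatives used DESeq2 1.42.0, its size factors, other filters, fewer libraries or a replicate block.

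Genes were named by a rule. It took RIPK2, NOD1, NOD2, XIAP, MAP2K7, NFKBIA and MYC, among others. Some genes that it takes are not reported here. Added to these were the 10 largest rises and 10 largest falls by log2 fold change and 5 of each by CPM difference, restricted to calls without overlap whose higher group averaged 100 counts or more. Each list added up to 3 rises and 3 falls that averaged 50 counts or more. Further sets were 5 of each apart from both 22Rv1 groups, 5 of each called in 3 lines in 1 direction and 3 of each that differed from both other lines. The comparison, lists and rule were chosen with earlier results of these data known. The chromosome, window and neighbour values and all genes outside the rule, such as members described as not called, were added after values were seen. Positions came from RefSeq (GRCh38.p14) for 15156 genes and GENCODE for 39.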

Additional observations from a re-analysis of the deposited data

Results flagged for a closer look

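The response to gRNA 10 differed between 22Rv1 and the other lines by a test of the difference itself, the interaction of line and guide in the edgeR fit of 27 libraries. It was called for 7300 genes against DU145 and 7772 against PC3, of 16322 tested. The values that follow are log2 differences of the gRNA 10 effect, 22Rv1 minus the other line, each with an adjusted p below 0.05. Among RIPK2, its signalling partners and MYC, RIPK2 differed by -1.34 (DU145) and -0.44 (PC3), NFKBIA by -0.999 and -2.29, MAP2K7 by 0.38 and 0.39, and MYC by -0.62 and 1.23. MAP2K7 lost both calls without control replicate 2, with differences of 0.32 and 0.32.

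Genes that moved one way in all 3 lines also differed in size. GDF15 differed by 1.12 (DU145) and 0.94 (PC3), ANGPTL4 by 1.66 and 1.02, SOCS2 by -1.97 and -1.77, and CAV1 by -2.38 and -1.21. PLXNA2 differed from DU145 by -2.58, while AKR1C2 (-1.56), NPTX1 (-3.06), SLC47A1 (6.59) and WLS (0.37) differed from PC3.

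The genes chosen because they differed most from both lines were the following. ARHGAP32 differed by 8.18 (DU145) and 8.67 (PC3), TMEM184A by 6.85 and 6.78, ECM1 by -11.10 and -10.01, COL9A2 by -9.55 and -10.41, and RNF182 by -8.27 and -8.40. For HNMT the fitted differences were 12.48 and 12.26, values that depend on the prior count because the 22Rv1 control had 0 counts, and they are no bounds. Groups held 3 libraries, so no single library was tested as an outlier.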

How the results depend on the processing

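Calls for gRNA 10 against control numbered 6169 in the fit as described and 4631 to 8971 over all alternatives: 4631 without gRNA 10 replicate 1 and 8971 without gRNA 1 replicate 3, with 8400 from the 6 libraries alone and 6317 with DESeq2. The share of calls that were higher stayed between 47.8 and 50.9%. Calls that differed by 1 or more on the log2 scale fell from 2237 to 1423 when 10 counts were required in every library, which removes genes near 0 in 1 group. Calls of gRNA 10 against gRNA 1 ranged from 3803 to 6940, differences from DU145 from 5939 to 8336 and from PC3 from 6294 to 8697, and RIPK2 from -1.67 to -1.57. Of 183 named genes called, 168 were called in every alternative that gave a value, 15 lost the call in at least 1 and none reversed. Replicate numbers did not pair the libraries (correlations of same-numbered deviations 0.14, 0.09 and -0.05); with a replicate block 6252 genes were called. Promoter letters were found for 55.0% of tested genes, so a check of promoter CG content is void. The mitochondrial difference was 0.664 to 1.05 percentage points when 1 library was left out. Counting depth limits genes under about 0.16 CPM.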
